A study of Mus musculus with 12 samples.

Results

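The mRNAs described here are 9 mouse genes that are tied to miR-124 by earlier work or by the study: Ptbp1, Ctdsp1, Mtor, Fmr1, Iqgap1, Vamp3, Itgb1, Rela and Creb1. They were taken by name, not by their values, out of 24209 gene symbols or RefSeq rows without a symbol, and they occupied 14 of the 32850 RefSeq rows of the count table. miR-124 was not inhibited in any of the 12 mice, so the 9 genes serve as uninhibited controls for the inhibition of 2 other miRNA families. The study compared adult male C57BL/6 mice injected into both hippocampi, at 10 weeks of age, with an AAV2/5 vector expressing GFP under the human synapsin promoter. In the miR-9 experiment, 3 mice received GFP followed by a sponge against miR-9 (miR-9sp) and 3 received GFP alone (GFP Ctrl), and in the miR-34 experiment 3 mice received a sponge against miR-34 (miR-34sp) and another 3 received GFP Ctrl. A sponge is a transcript with several imperfect binding sites that occupies a miRNA family. The hippocampi were taken 10 weeks after injection and sequenced whole, so the promoter limits the sponge to neurons, while the RNA came from neurons, glia and vessels together.

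miR-124 is an abundant miRNA of neurons. It binds the 3′ UTR of its targets through its seed, bases 2 to 8, and lowers their mRNA and protein, and it is known for repressing genes of non-neuronal cells when neurons differentiate. Ptbp1, a splicing repressor of non-neuronal cells, and Ctdsp1, a small phosphatase that works with the REST repressor of neuronal genes, are its classical targets. Iqgap1 (a scaffold of the actin cytoskeleton), Itgb1 (the integrin β1 subunit), Vamp3 (a SNARE protein of recycling vesicles), Rela (the p65 subunit of NF-κB) and Creb1 (a transcription factor of activity-dependent genes) were reported as targets in other settings. Mtor, the kinase of the mTOR growth pathway, and Fmr1, the RNA-binding protein lost in fragile X syndrome, were named by the study from its analysis of pathways after miR-124 inhibition, and the study does not count Mtor among the direct targets.

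The letters GTGCCTT, complementary to the miR-124 seed, were present in the annotated 3′ UTR of 7 of the 9 genes, on the transcript strand of the mm9 genome (GENCODE M1, transcript with the longest coding sequence). Of 19915 genes with a 3′ UTR, 10.9% held this heptamer, with a median 3′ UTR length of 710 bases against 1701 bases in the 9 genes. Ctdsp1 had 5 matches, Vamp3 had 3, Iqgap1 and Itgb1 had 2 each, and Ptbp1, Fmr1 and Rela had 1 each. Mtor (3′ UTR of 823 bases) and Creb1 (7169 bases) had none. The shorter TGCCTT, which lies within the heptamer, was found in 8 of the 9 genes, Mtor being the exception, and in 37.1% of all genes. In 4 genes a heptamer was followed by A, which extends it to the strongest class of seed match, and these windows are shown because they are the closest matches among the 9 genes. The match to the seed is in capitals.
Ptbp1, chr10:79326267-79326293, plus strand: gccgctttctGTGCCTTacaaaccagc
Iqgap1, chr7:87857987-87858013, minus strand: tattccaagaGTGCCTTaccaaagtat
Vamp3, chr4:150422662-150422688, minus strand: atagcagggtGTGCCTTattttgatag
Rela, chr19:5647987-5648013, plus strand: cttttttcaaGTGCCTTaatagcaggg

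The inhibited miRNAs have other seeds, given here from RefSeq (GRCm38.p6) with bases 2 to 8 in capitals, to show that miR-34a-5p and miR-34b-5p share theirs.
miR-9-5p: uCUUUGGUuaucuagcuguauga
miR-34a-5p: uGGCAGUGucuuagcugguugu
miR-34b-5p: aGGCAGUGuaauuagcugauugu

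The heptamer for miR-34, CACTGCC, was in none of the 9 3′ UTRs, against 12.1% of all genes. The heptamer for miR-9, ACCAAAG, was in 3 of them, against 10.0% of all genes. These 3, Ptbp1, Iqgap1 and Vamp3, thus hold letters complementary to an inhibited family in the miR-9 experiment. In Iqgap1 the miR-9 heptamer begins directly after the 7 letters of the miR-124 match, as can be read in the window above. The other matches to miR-9 are printed here with the seed match in capitals. A match is a description of letters and was not tested as a binding site.
Ptbp1, chr10:79326752-79326778, plus strand: aaaattttggACCAAAGtttagctttc
Vamp3, chr4:150422451-150422477, minus strand: tagaactatgACCAAAGtttctatttt

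**Figure D1:**
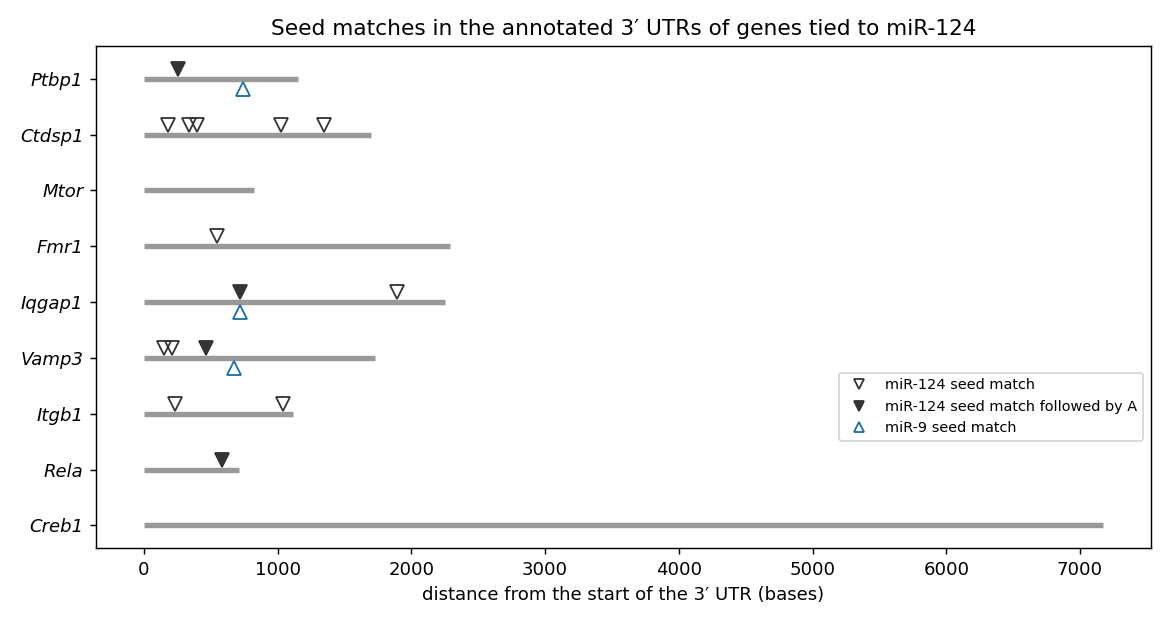
Matches to the miR-124 seed (downward triangles, filled where followed by A) and the miR-9 seed (upward triangles) along the annotated 3′ UTR of each gene, drawn as a grey bar from its start, in bases. Ctdsp1 carries 5 miR-124 matches, Mtor and Creb1 carry none, and the miR-9 match of Iqgap1 adjoins a miR-124 match.

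The deposited values are counts of reads on each RefSeq row, and 6 of the 9 genes had 1 row each: Ctdsp1 (NM_153088), Mtor (NM_020009), Iqgap1 (NM_016721), Vamp3 (NM_009498), Itgb1 (NM_010578) and Rela (NM_009045). These rows held from 292 reads (Rela, a GFP Ctrl mouse) to 5527 reads (Mtor, a GFP Ctrl mouse) per mouse. The other 3 genes had several rows and few reads. Ptbp1 had 4 to 16 reads per mouse on NM_001077363 (3108 bases) and 0 in all 12 mice on NM_008956 and NM_001283013. Fmr1 had 2 to 21 reads on NM_008031 (4407 bases) and 0 on NM_001290424. Creb1 had 0 to 8 reads on NM_009952 (8421 bases) and 0 on NM_133828 and NM_001037726. In each of these genes the reads sat on the longest row, so the sum over rows equalled that row. The same pattern held across the table. Coding genes with 1 row had a median of 136 reads per mouse, those with 2 rows 4.08 and those with 3 or more rows 1.92. Of 2538 genes with several rows and at least 10 reads in all, 73.0% had at least 90% of their reads on 1 row. How the authors assigned reads shared between rows is not given in the sources used here, so the low counts of Ptbp1, Fmr1 and Creb1 cannot be read as low expression.

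On mm9, Ptbp1 lies at chr10:79317172-79327516, Ctdsp1 at chr1:74438083-74443859, Mtor at chr4:147822720-147931792, Fmr1 at chrX:65931716-65971138 and Iqgap1 at chr7:87856469-87948217. Vamp3 lies at chr4:150421409-150432072, Itgb1 at chr8:131209554-131257100, Rela at chr19:5637483-5648130 and Creb1 at chr1:64579378-64651121. Ptbp1 and Mtor overlap genes of the other strand (BC005764, E130317F20Rik and Gm17134 for Ptbp1, Angptl7 for Mtor), as does Fmr1 (SNORA25), and Ctdsp1 contains Mir26b. Without a statement on strand in the counting, reads of such overlapping genes cannot be told apart.

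Per length, and averaged over the 12 mice, Mtor had the highest level with 24.6 RPKM (reads per kilobase of row length, scaled to the counted reads of the mouse, range 21.6 to 27.4), followed by Itgb1 with 24.1 (22.9 to 25.6), Vamp3 with 17.3 (15.6 to 19.2), Ctdsp1 with 13.5 (11.4 to 15.5), Rela with 10.8 (9.47 to 12.6) and Iqgap1 with 6.59 (5.34 to 7.46). Mtor and Itgb1 overlapped in 3 of the 4 groups, the exception being miR-9sp, and in the miR-34 experiment the mean of Itgb1 was above that of Mtor (24.1 against 22.8 in GFP Ctrl and 23.4 against 23.2 after miR-34sp). Ctdsp1 and Rela overlapped in both groups of the miR-9 experiment. Every other neighbouring pair among these 6 was separated in all 4 groups. The 3 genes with several rows lay far lower, with 0.185 for Ptbp1, 0.162 for Fmr1 and 0.0202 for Creb1, and the ranges of Ptbp1 and Fmr1 overlapped in all 4 groups. These 3 values carry the limit of counting just described. The coefficient of variation between mice of a group was 1.01% to 14.3% for the 6 genes with 1 row and 6.67% to 86.7% for the other 3.

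**Figure D2:**
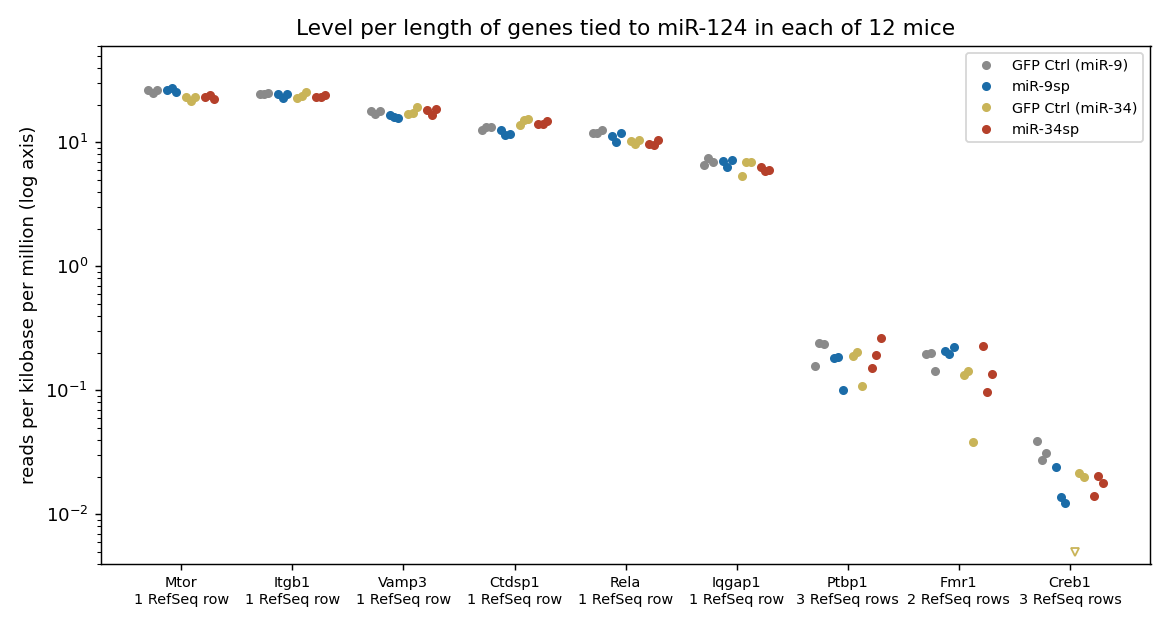
Level per length (RPKM, log axis) of each gene in each mouse, coloured by group, with the number of RefSeq rows below each name. The 6 genes with 1 row sit between 5.34 and 27.4 and the 3 genes with several rows below 0.3, and the open triangle marks 1 mouse in which Creb1 had 0 reads.

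Each mouse of the miR-9 experiment had 17279620 to 24428477 counted reads, and each mouse of the miR-34 experiment 11029604 to 16934133. Neuronal, astrocytic, microglial, oligodendrocytic and vascular markers were present in all mice, as in whole hippocampus, although the labels give the cell type as neurons. Over all mice the summed level was 608 to 717 RPKM for astrocytic, 241 to 324 for oligodendrocytic and 82.7 to 105 for vascular markers. Markers of the choroid plexus, a tissue next to the hippocampus, varied most. Their summed level was 491 to 1840 RPKM in the GFP Ctrl mice of the miR-34 experiment against 32.2 to 95 after miR-34sp, and in the miR-9 experiment 76.1 to 558 in GFP Ctrl against 22.0 to 659 after miR-9sp. Ttr, the most abundant of them, had 7865 to 25616 reads in the former GFP Ctrl mice and 322 to 1735 after miR-34sp. Of the 10 markers, 8 were tested after miR-34sp, and 4 of these passed the adjusted limit, all lower (edgeR). Folr1 of this list, Itgam of the microglial and Tek and Pdgfrb of the vascular list had 0 reads in all 12 mice, and each of these is listed on several RefSeq rows.

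After miR-9 inhibition, none of the 9 genes tied to miR-124 passed the test. In edgeR's quasi-likelihood test, 8 of the 9 reached the minimum of a mean of 10 scaled reads (reads scaled to the average total of the experiment), Creb1 being below it, and 0 of the 8 had an adjusted p under 0.05, where the background over all 13045 genes tested was also 0%. At an unadjusted p under 0.05 the number was again 0 of 8, against 4.73% of all genes, 322 higher and 295 lower. The median log2 fold change was -0.065 over the 8 genes and -0.001 over all genes. DESeq2 also called 0 of the 8 genes.

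Ctdsp1, which carries the most miR-124 matches, had 743, 737 and 704 scaled reads in the GFP Ctrl mice and 650, 700 and 636 after miR-9sp. The groups did not overlap, by the small gap between 704 and 700. The log2 fold change was -0.11 (SE 0.05, 95% interval -0.23 to 0.01, unadjusted p = 0.0588, edgeR adjusted p = 0.97), a fold of 0.924. The ratio of the mean scaled reads, which do not use the scaling of edgeR, was 0.909. Vamp3, the SNARE of recycling vesicles, had 726, 767 and 757 scaled reads in GFP Ctrl and 665, 712 and 684 after miR-9sp, again without overlap. Its log2 fold change was -0.10 (SE 0.05, interval -0.22 to 0.01, unadjusted p = 0.07, edgeR adjusted p = 0.97). Separation of all 3 sponge mice from all 3 GFP Ctrl mice was seen in 2 of the 8 genes tested and in 11% of all genes tested. It was read from reads scaled by total, under which the median log2 fold change of all genes was -0.022. Separation under the scaling of edgeR was not examined. An exact permutation test of 3 mice against 3 gave its smallest possible p, 0.1, for both.

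Rela, the NF-κB subunit, had 658, 687 and 654 scaled reads in GFP Ctrl and 656, 619 and 547 after miR-9sp. The groups overlapped, and 1 mouse (547) lay below the rest. Its log2 fold change was -0.11 (SE 0.07, interval -0.26 to 0.04, edgeR adjusted p = 0.97). Microglial markers had a summed level of 255 to 277 after miR-9sp and 284 to 297 in GFP Ctrl (RPKM). Their highest marker, Csf1r, differed by -0.09 on the log2 scale (unadjusted p = 0.029, edgeR adjusted p = 0.97). Neuronal markers summed to 1990 to 2080 after miR-9sp and 1800 to 1990 in GFP Ctrl, with Slc17a7 at a log2 difference of 0.13 (adjusted p = 0.97). The part of these markers in the values of Ctdsp1, Vamp3 and Rela was not tested, and in whole tissue fewer cells of a type and less RNA per cell cannot be told apart.

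Mtor, Itgb1 and Iqgap1 stayed closest to their GFP Ctrl values. Mtor had 4341, 4580 and 4560 scaled reads in GFP Ctrl and 4443, 4555 and 4751 after miR-9sp, with overlapping groups and a log2 fold change of 0.05 (SE 0.05, interval -0.05 to 0.15). Itgb1, the integrin subunit, had 2088, 2127 and 2092 in GFP Ctrl and 2068, 2100 and 1934 after miR-9sp, and its log2 fold change was -0.03 (SE 0.04, interval -0.11 to 0.06). Iqgap1, in which a miR-9 match adjoins a miR-124 match, had 1107, 1037 and 969 in GFP Ctrl and 1073, 1057 and 938 after miR-9sp. Its groups overlapped almost fully, with a log2 fold change of 0.00 (SE 0.06, interval -0.14 to 0.14). The edgeR adjusted p of these 3 genes was 0.97 to 0.997.

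The genes with few reads gave wide intervals, and their reads per mouse are given here without scaling for depth. In scaled reads the means of GFP Ctrl and miR-9sp were 13.3 and 9.76 for Ptbp1, 16 and 18.7 for Fmr1, and 5.53 and 2.85 for Creb1. Ptbp1, the splicing repressor, had 16, 14 and 12 reads in GFP Ctrl and 6, 11 and 10 after miR-9sp. Its log2 fold change of -0.41 had an SE of 0.34 and an interval of -1.17 to 0.35, which spans lower and higher levels. Fmr1 had 19, 12 and 21 reads in GFP Ctrl and 19, 18 and 15 after miR-9sp, with a log2 fold change of 0.24 (SE 0.24, interval -0.31 to 0.78). The unadjusted p of Fmr1 (0.412, edgeR) is larger than this SE implies, so its interval may be too narrow. Creb1 had 5, 5 and 8 reads in GFP Ctrl and 2, 4 and 2 after miR-9sp. These counts did not overlap, but all are small, and 2 of the miR-9sp mice lie under the 3 reads taken as the limit of detection. With every gene of at least 1 read in the fit the log2 fold change was -0.94 with an interval of -2.21 to 0.32 (edgeR adjusted p = 0.908). No difference was detectable for these 3 genes at this depth.

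**Figure D3:**
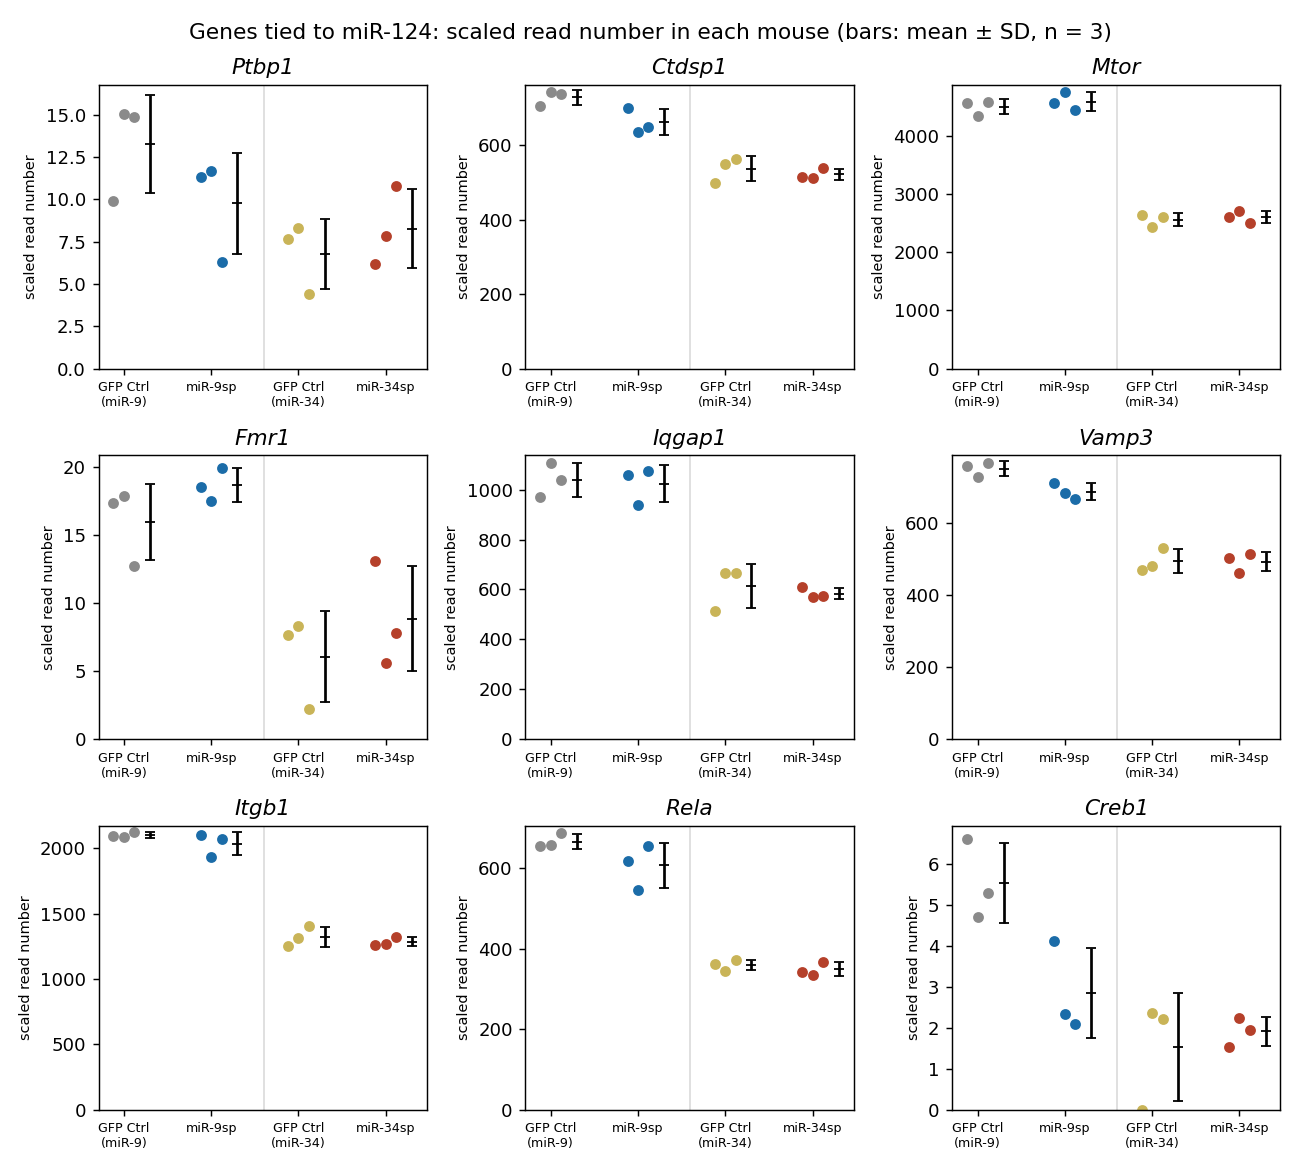
Scaled read number of each gene in each mouse (points) with mean ± SD (bars, n = 3), each panel starting at 0, for GFP Ctrl and sponge mice of the miR-9 experiment (left) and the miR-34 experiment (right). Read numbers are scaled by total within an experiment, so left and right are not on one scale. Ctdsp1 and Vamp3 were separated in the miR-9 experiment (704 against 700 and 726 against 712 at the nearest mice), as were 11% of all genes tested. Creb1, too low to be tested, was also separated there. The 6 genes with 1 row overlapped in the miR-34 experiment, but the test of the difference between the sponges called none of them.

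After miR-34 inhibition none of these genes passed the test either. Of the 9 genes, 6 reached the minimum of 10 scaled reads, and 0 of the 6 had an adjusted p under 0.05 in edgeR, against 0.064% of the 12492 genes tested. Likewise 0 of 6 had an unadjusted p under 0.05, against 6.43% of all genes, and DESeq2 called none. In none of the 6 were the groups separated, against 11.6% of all genes. The median log2 fold change was -0.044 over the 6 genes and -0.001 over all genes.

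Ctdsp1 had 548, 562 and 499 scaled reads in GFP Ctrl and 539, 515 and 511 after miR-34sp, a log2 fold change of -0.04 (SE 0.06, interval -0.18 to 0.09). Vamp3 had 480, 531 and 470 in GFP Ctrl and 513, 501 and 462 after miR-34sp, with means of 494 and 492. Rela had 346, 372 and 362 in GFP Ctrl and 368, 342 and 335 after miR-34sp, a log2 fold change of -0.05 (SE 0.07, interval -0.20 to 0.10). All 3 overlapped. Mtor had 2427, 2605 and 2632 in GFP Ctrl and 2498, 2601 and 2713 after miR-34sp, a log2 fold change of 0.02 (SE 0.05, interval -0.08 to 0.13). Itgb1 had 1311, 1404 and 1252 in GFP Ctrl and 1323, 1264 and 1265 after miR-34sp, a log2 fold change of -0.05 (SE 0.05, interval -0.15 to 0.06). Again the groups of both genes overlapped. Iqgap1 had 666, 666 and 514 in GFP Ctrl and 573, 609 and 569 after miR-34sp, the widest spread among GFP Ctrl mice of these 6 genes. Its log2 fold change was -0.07 (SE 0.09, interval -0.27 to 0.13). Without the GFP Ctrl mouse at 514 (mouse 10) it was -0.19 with an unadjusted p of 0.0129 (edgeR adjusted p = 0.457). That was the lowest of 6 fits with a mouse left out, which ranged from -0.19 to -0.01. Without mouse 10, 57 genes of any kind passed the adjusted limit in edgeR, against 8 with all mice. The edgeR adjusted p of the 6 genes was 0.935 to 0.996. The choroid plexus markers given above differed between these groups by far more than any of the 6 genes, and their part in these values was not tested.

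The other 3 genes were below the minimum in the miR-34 experiment, and their reads are again given without scaling. Ptbp1 had 7, 4 and 8 reads in GFP Ctrl and 11, 8 and 7 after miR-34sp. Fmr1 had 7, 2 and 8 reads in GFP Ctrl and 8, 17 and 5 after miR-34sp. Creb1 had 2, 2 and 0 reads in GFP Ctrl and 2 in each miR-34sp mouse, and all of these counts are at or under the limit of 3 reads. In the fit of every gene with at least 1 read, the log2 intervals were -0.71 to 1.22 for Ptbp1, -0.41 to 1.61 for Fmr1 and -1.83 to 2.58 for Creb1.

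How large a change these data could hide was read from the intervals. The study took a ratio above 1.2 or below its inverse as a change. For probable targets of the inhibited miRNAs it reported an average rise smaller than this ratio. An interval between the ratios need not exclude a change of that size. In the miR-9 experiment the whole 95% interval lay between these ratios for 6 of the 8 genes tested (all except Ptbp1 and Fmr1), against 52.9% of all genes. In the miR-34 experiment this held for 5 of the 6 genes tested (all except Iqgap1, whose interval reached 0.829), against 49.7% of all genes. Each of the 6 genes with 1 row had at least 292 reads per mouse, whereas the background takes every gene above 10 scaled reads. Genes of like read number were not compared, so the higher shares are not read as a trait of these genes. The study's own criterion, an unadjusted p under 0.05 together with such a ratio, was applied here to gene sums. It was met by 0 of the 8 genes detected after miR-9sp, against 1.44% of the 13083 genes detected. After miR-34sp it was met by 0 of 6, against 1.99% of 12502 genes. The study itself reported fewer altered genes, and a smaller share of the genes it detected, for each of these sponges. The source of that gap was not tested.

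**Figure D4:**
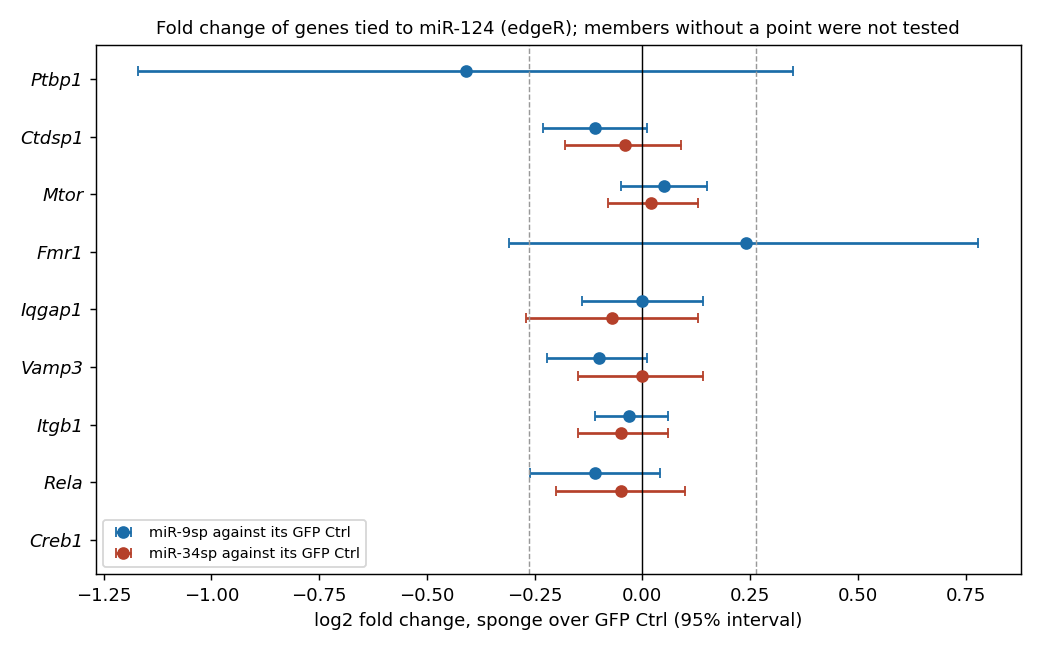
Log2 fold change of each gene, sponge over GFP Ctrl, with its 95% interval from edgeR, for miR-9sp (blue) and miR-34sp (red). Dashed lines mark a ratio of 1.2 and its inverse. Every interval includes 0, and those of Ptbp1 and Fmr1 in the miR-9 experiment are the widest.

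Whether the sponges differed from each other in their effect on these genes was tested in 1 model of all 12 mice. Of the 7 genes tested (Ptbp1 and Creb1 were below the minimum), 0 had an adjusted p under 0.05, against 0% of 12835 genes. At an unadjusted p under 0.05 the number was also 0, against 6.1% of all genes. Fmr1 reached the minimum here only through the mice of the miR-9 experiment. Within the miR-34 experiment it was below the minimum, with mean scaled reads of 6.05 in GFP Ctrl and 8.85 after miR-34sp. The effect of miR-9sp minus that of miR-34sp was -0.07 for Ctdsp1 (interval -0.24 to 0.10), -0.10 for Vamp3 (-0.28 to 0.08) and -0.06 for Rela (-0.26 to 0.14) on the log2 scale. It was 0.03 for Mtor (-0.11 to 0.17), 0.02 for Itgb1 (-0.11 to 0.15), 0.08 for Iqgap1 (-0.18 to 0.33) and -0.37 for Fmr1 (-1.52 to 0.78). The lower values of Ctdsp1 and Vamp3 after miR-9sp were thus not shown to be particular to that sponge.

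Larger differences lay between the GFP Ctrl mice of the experiments, which carry no sponge. Between these sets 25.2% of 12878 genes passed an adjusted p under 0.05 in edgeR, and 3 of the 7 genes tied to miR-124 that were tested did so. Ctdsp1 was lower in the miR-9 experiment, with 13.3, 13.2 and 12.6 against 15.1, 15.5 and 13.8 RPKM (log2 difference -0.24, SE 0.06, edgeR adjusted p = 0.0159). Rela was higher there, with 12, 12.6 and 12 against 9.77, 10.5 and 10.2 (0.21, SE 0.06, adjusted p = 0.0248). Mtor was also higher, with 25.1, 26.4 and 26.3 against 21.6, 23.2 and 23.4 (0.14, SE 0.04, adjusted p = 0.0334). In each of the 3 genes the sets did not overlap. That describes genes named because they passed on these same values, and the share over all genes was not computed. These calls were sensitive to single mice: without GFP Ctrl mouse 16 of the miR-9 experiment none of the 3 passed, without mouse 8 of that set or mouse 4 of the miR-34 experiment only Ctdsp1 did, without mouse 10 of the miR-34 experiment Rela did not, and without mouse 8 of the miR-34 experiment Mtor did not. In DESeq2 only Ctdsp1 passed. Itgb1 (-0.01), Vamp3 (-0.07), Iqgap1 (0.08) and Fmr1 (0.73, SE 0.41) did not pass. Fmr1 reached the minimum only through the miR-9 set, with mean scaled reads of 13.4 against 7.83 in the miR-34 set. The column headers of the miR-9 experiment, unlike those of the other, contain the term totRNA, and experiment, depth and library preparation cannot be told apart in this comparison, and the choroid plexus markers differed as well.

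The genes that work beside the 9 were followed through 8 lists with 112 symbols: splicing regulators around PTBP1, the REST and small phosphatase complex, mTOR complexes, the FMRP complex, integrin and IQGAP partners, vesicle SNAREs, NF-κB and CREB partners. After miR-9sp, 0 of the 87 tested passed the adjusted limit in edgeR, and 4 were higher and 1 lower at an unadjusted p under 0.05 (background 4.73%). After miR-34sp, 0 of 85 passed, with 4 higher and 3 lower (background 6.43%). List medians ran from -0.06 to 0.04 after miR-9sp and from -0.17 to 0.03 after miR-34sp on the log2 scale, the lowest being the 7 NF-κB genes tested in both cases, beside -0.001 over all genes.

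The counterparts of the 9 genes gave the following values, none past the adjusted limit after either sponge. Ptbp2, the neuronal counterpart of Ptbp1, had 3703 to 3926 scaled reads in the miR-9 experiment, with log2 fold changes of 0.01 (SE 0.04) after miR-9sp and -0.02 (SE 0.04) after miR-34sp. Rest, the repressor with which Ctdsp1 works, had -0.01 (SE 0.10) and -0.15 (SE 0.17), and Ctdsp2, its sister phosphatase, 0.04 (SE 0.08) and -0.06 (SE 0.08). These values show no difference beyond the spread between mice in the genes that accompany the classical targets. Rptor, the mTOR partner of complex 1, had 0.04 (SE 0.04) and -0.04 (SE 0.04), and Fxr1, a relative of Fmr1, 0.06 (SE 0.23) and -0.23 (SE 0.25). Vamp2, the synaptic relative of Vamp3, had 0.02 (SE 0.03) and 0.03 (SE 0.03), and Crtc1, a coactivator of CREB, 0.13 (SE 0.06) and -0.02 (SE 0.04). Iqgap2 and Nfkb1 each had an unadjusted p under 0.05 once. Iqgap2 had 3465, 2943 and 3177 scaled reads in GFP Ctrl and 3280, 3567 and 4277 after miR-9sp, a log2 fold change of 0.24 (SE 0.10, unadjusted p = 0.0327, edgeR adjusted p = 0.97). Nfkb1, which encodes the partner of RELA in NF-κB, had 358, 368 and 357 in GFP Ctrl and 353, 298 and 317 after miR-34sp, a log2 fold change of -0.17 (SE 0.07, unadjusted p = 0.0458, edgeR adjusted p = 0.769).

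Among the other partners, those with the smallest unadjusted p after miR-9sp were Rcor1, a corepressor of REST, at a log2 fold change of 0.23 (unadjusted p = 0.00597), Srrm4, a neuronal splicing factor, at 0.12, Ulk1, a kinase of autophagy, at 0.08, and Traf6, an adaptor of NF-κB signalling, at -0.11, all with an edgeR adjusted p of 0.97. After miR-34sp these were Itga3, an integrin subunit that pairs with β1, at -0.25, Atf1, a relative of Creb1, at -0.23, Nova2, a neuronal splicing factor, at 0.11, the S6 kinases Rps6kb1 at 0.11 and Rps6kb2 at 0.18, and Ptk2, the focal adhesion kinase, at 0.12, with edgeR adjusted p from 0.605 to 0.769. Between the GFP Ctrl sets, 24 of 86 list genes tested passed (background 25.2%). Among them were Ctdsp2 at -0.71 and Rest at -0.57, both lower in the miR-9 experiment like Ctdsp1, Iqgap2 at -0.23, Vamp2 at 0.25 and Crtc1 at 0.15 (edgeR adjusted p = 7.91e-05, 0.0164, 0.0201, 0.000231 and 0.0248).

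The miR-124 precursors themselves were seen only through their host transcripts, since mature miRNAs are not captured in poly-A libraries. Mir124a-1hg, the host of the first locus, had 979 to 2073 reads in mice of the miR-34 experiment and 3186 to 4711 in those of the miR-9 experiment, and Mir124-2hg had 63 to 186. These reads are not scaled for depth, and in the test between the GFP Ctrl sets Mir124a-1hg was higher in the miR-9 experiment (log2 difference 0.96, SE 0.10, edgeR adjusted p = 5.56e-05), where experiment and preparation cannot be told apart. Mir124a-1hg had a log2 fold change of 0.03 (SE 0.07) after miR-9sp and 0.26 (SE 0.10, unadjusted p = 0.0282, edgeR adjusted p = 0.71) after miR-34sp, with 1496, 1086 and 1467 scaled reads in GFP Ctrl and 1798, 1599 and 1471 after miR-34sp. Mir124-2hg had -0.03 (SE 0.12) and 0.12 (SE 0.15). The rows of the precursors Mir124a-1, Mir124a-2 and Mir124a-3 held 0 to 4 reads, about the limit of detection.

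The wider set of genes with the miR-124 heptamer in the 3′ UTR was described in the same way. After miR-9sp, 1443 genes with it had a median log2 fold change of 0.003, with 52 higher and 23 lower at an unadjusted p under 0.05, and 9290 genes without it had -0.001, with 214 higher and 210 lower. Genes with a miR-9 heptamer, the inhibited family, had 0.009 over 1312 genes with 47 higher and 22 lower, and genes with a miR-34 heptamer, not inhibited there, 0.003 over 1604 genes with 50 higher and 24 lower. After miR-34sp, 1403 genes with the miR-124 heptamer had a median of -0.014, with 24 higher and 87 lower, and those without it had -0.000, with 236 higher and 340 lower. Genes with a miR-34 heptamer, the family inhibited there, had -0.004 over 1555 genes with 44 higher and 66 lower, and genes with a miR-9 heptamer -0.009 over 1273 genes with 24 higher and 57 lower. Differences between these sets were not tested. The sets overlap, since 1 UTR can hold several heptamers. Among the 9 genes, 5 of 8 values after miR-9sp and 5 of 6 after miR-34sp were below 0. Over all genes tested, 6557 of 13045 and 6285 of 12492 were below 0. The 9 genes, of which Mtor and Creb1 hold no miR-124 heptamer, are too few to be placed among these sets.

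Across the 12 mice, with the mean of each experiment subtracted, the 6 genes with 1 row varied partly together. The Pearson correlation of log2 CPM (counts scaled to the total) was positive for the pairs formed by Ctdsp1, Vamp3, Itgb1, Rela and Iqgap1, from 0.29 (Iqgap1 with Vamp3 and with Rela) to 0.82 (Ctdsp1 with Itgb1), and negative for Mtor with each of them, from -0.61 with Iqgap1 to -0.17 with Vamp3. The values share library and depth with each other and are given as a description. Among 9239 genes with a mean above 100 scaled reads, the most alike was Rida for Ctdsp1 (r = 0.93), Dennd5b for Mtor (0.93), Hapln1 for Iqgap1 (0.92), Dcps for Vamp3 (0.92), Atp1b3 for Itgb1 (0.96) and Zfyve21 for Rela (0.93), over 12 mice. Each of these is the highest of 9239 values, and how high such a maximum runs among unrelated genes was not computed. Differences between sponge and GFP Ctrl mice were not subtracted.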

How the data were processed

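RNA of whole hippocampi from 12 mice was sequenced by the authors as 50 bp single-end reads after poly-A enrichment, mapped to the mouse genome and counted to RefSeq. The deposited values are raw counts per RefSeq row, with the length of each row as another kind of value. The methods name mm9, whereas the submitters' processing notes name mm10 and STAR. The counting tool and the rule for shared reads are not given in the sources used here. GFP Ctrl mice 2, 8 and 16 carry no experiment in their labels and were placed in the miR-9 experiment, as the other 3 GFP Ctrl labels name miR-34.

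Of the RefSeq rows, 98.7% were joined to a symbol, and rows were summed by gene. Counts were fitted with edgeR 4.0.16 (R 4.3.3, TMM, quasi-likelihood test, Benjamini-Hochberg over all genes tested) on genes with a mean above 10 scaled reads over the mice compared. RPKM values were computed from the counts and row lengths, and correlations used log2(CPM + 0.5). The SE is the log2 fold change divided by the square root of F. For genes with few reads it can be smaller than the p implies, as for Fmr1 after miR-9sp. The code was tested on simulated data. Labels do not pair mice, and p-values measure the spread between mice. The 3 reads taken as the limit of detection are 1.23e-05% to 2.72e-05% of a mouse's reads, and cover counting error only. Seed matches were searched on the transcript strand with Python 3.11.15. Alternatives were DESeq2 1.42.0, other size factors, other minimums, RefSeq rows, 1 model of all mice, the study's criterion, and leaving out mice. Named genes were the 9 genes, 1 counterpart of each, list genes past the adjusted limit or with the smallest unadjusted p (at most 2 a list and experiment), the most abundant marker of a list, and the most alike genes. For the comparison of GFP Ctrl sets, list genes past the limit other than counterparts are given by count. The 9 genes and all lists were chosen with earlier results of these data known.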

Additional observations from a re-analysis of the deposited data

How the results depend on the processing

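The number of genes tied to miR-124 with an adjusted p under 0.05 stayed 0 after miR-9sp (15 alternatives), after miR-34sp (14) and for the difference between the sponges (18), and ranged from 0 to 3 between the GFP Ctrl sets (11 alternatives), with 1 in DESeq2 and 0 to 3 when a mouse was left out. There the log2 difference was 0.13 for Mtor (adjusted p = 0.0553) and 0.21 for Rela (0.112) in DESeq2. Scaling by total reads alone gave 2 of the 8 genes tested with an unadjusted p under 0.05 after miR-9sp, Ctdsp1 at -0.14 and Vamp3 at -0.13. With that scaling the median log2 fold change over all genes was -0.022. The study's test also gave 2. The share of all genes with an unadjusted p under 0.05 was not computed for the alternatives. Leaving out a mouse gave 0 to 1 after miR-9sp, namely Ctdsp1 without miR-9sp mouse 17 and Rela without miR-9sp mouse 9, and 0 to 1 after miR-34sp. Genes of any kind with an adjusted p under 0.05 after miR-9sp numbered 2 in DESeq2, 2 with every gene of at least 1 read, 1 without the mice named below and 0 to 1 with a mouse left out. The study's criterion as applied here to gene sums, which uses an unadjusted p, was met by 188. After miR-34sp they numbered 36 in DESeq2, 4 with RLE size factors, 4 with total reads, 81 with every gene of at least 1 read, 0 above 100 scaled reads, 4 over RefSeq rows, 0 in 1 model of all mice and 0 to 57 with a mouse left out, and the study's criterion was met by 249. The study itself reported fewer genes than these 188 and 249. For the difference, genes with an adjusted p under 0.05 numbered 5 in DESeq2, 4 with every gene of at least 1 read and 0 to 1 with a mouse left out. Between the GFP Ctrl sets they were 2266 to 2913 with a mouse left out. The causes of these shifts were not tested.

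Values near 0 changed sign. Iqgap1 after miR-9sp was -0.02 with total reads and -0.00 with every gene of at least 1 read, and ranged from -0.04 to 0.05 with a mouse left out. Itgb1 was -0.00 with total reads for the difference, and 0.04 between the GFP Ctrl sets. With a mouse left out, Mtor after miR-34sp ranged from -0.01 to 0.06 and Vamp3 from -0.04 to 0.05. For the difference Mtor ranged from -0.01 to 0.06, Itgb1 from -0.02 to 0.06 and Fmr1 from -0.62 to 0.09, and between the GFP Ctrl sets Iqgap1 ranged from -0.04 to 0.14 and Itgb1 from -0.05 to 0.03. Scaling moved the median of all genes by at most 0.052.

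An alternative chosen after seeing the data left out the mouse of each group of the miR-9 experiment with the highest choroid plexus marker level (miR-9sp mouse 17 and GFP Ctrl mouse 2). It gave 0 of the 9 genes called and 1 gene called in all after miR-9sp, with Ctdsp1 at -0.13 and Vamp3 at -0.14. No paired analysis was possible because no replicate number occurs in both a sponge group and its GFP Ctrl group.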
